A study of Rattus norvegicus with 6 samples.

Results

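The genes of 10 subunits of SWI/SNF, a chromatin remodelling complex that is also called BAF in mammals, were followed in rat retina with and without diabetes. They were Smarcd1, Smarcd2, Smarcd3, Smarca4, Smarca2, Smarcc1, Smarcc2, Smarcb1, Smarce1 and Arid1a, and they were found by their symbol among the 34170 genes of the expression table, where each symbol occurred in a single entry. The set was selected on the large difference of Smarcd1 between diabetic and control retinas in these same libraries, and the other subunits were added as its partners. The differences of the 10 genes between diabetic and control retinas are therefore given as a description, with no test.

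SWI/SNF complexes use the energy of ATP to slide or evict nucleosomes, and so open or close DNA for transcription factors. Each complex holds a single ATPase, either Smarca4 or Smarca2, paired Smarcc scaffold proteins, and a single protein of the Smarcd family, which is a contact point for transcription factors. Several forms of the complex, though not all, also hold Smarcb1 and Smarce1 in their core. In the nervous system, exchange of subunits accompanies the passage from dividing progenitor to neuron, and in mouse and zebrafish the ATPase Smarca4 takes part in the development of the retina.

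The diabetic group was 3 male Sprague-Dawley rats, an outbred stock, that received intraperitoneal streptozotocin, a toxin of the insulin-producing beta cells, on 5 days in a row, each dose being 60 mg/kg following 12 h without food. A fasting blood glucose above 16.7 mmol/L, measured 1 week after the last dose, counted as diabetic. The control group was 3 male rats of the same stock that received intraperitoneal citrate buffer, likewise on 5 days. The labels give all 6 rats as wild type, and neither the age of the rats nor the time at which retinas were taken was given in the sources used here. Streptozotocin is a chemical model, and effects of the toxin itself and of high glucose cannot be told apart in these groups.

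Poly-A RNA of whole retina was measured as FPKM, fragments scaled to transcript length and to a factor for each library, so levels can be compared between genes. The rebuilt fragment totals were between 16277864 and 19115426 in diabetic libraries and between 12417686 and 16941864 in control libraries. The 9 subunit genes other than Smarcb1 had between 250 and 14841 fragments per library. Of the photoreceptor genes that mark rods, the main cell type of rat retina, Gnat1, the rod transducin, averaged 3511 ± 195 FPKM in diabetic retinas and 5017 ± 207 FPKM in control retinas (SD, n = 3 each), and Sag, the rod arrestin, averaged 4103 ± 484 FPKM in diabetic retinas and 4689 ± 271 FPKM in control retinas. Lens markers were highest in control 3, where they summed to 341 FPKM.

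Smarcd1 was the most highly expressed of the subunit genes and the one with the largest difference. The gene (ENSRNOG00000061572) lay on the plus strand of chromosome 7 at 141355994 to 141366732 in the coordinates of the table, and its protein links the complex to transcription factors and nuclear receptors. Its level was 149.6, 144.6 and 144.5 FPKM in diabetic 1, 2 and 3, against 266.7, 292.7 and 323.2 FPKM in control 1, 2 and 3. All diabetic libraries lay below all control libraries, and the diabetic ones lay close together. The means were 146.3 ± 2.89 FPKM in diabetic retinas and 294.2 ± 28.3 FPKM in control retinas (SD, n = 3 each). The difference was -1.00 on the scale of log2(FPKM + 0.5) with a 95% interval of -1.21 to -0.79. Because Smarcd1 was chosen for a large difference in these same libraries, the 95% coverage does not hold for it. The interval is therefore a description and no test. In bulk retina, fewer cells that express a gene and less RNA of it per cell cannot be told apart. These values rested on 8001 to 9300 fragments in diabetic libraries and on 11559 to 14841 fragments in control libraries.

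Averaged over the libraries, only 262 genes of the table had a higher level than Smarcd1. The genes tested were the 16363 whose mean reached 0.5 FPKM, and of these 164 had a lower log2 difference. Among the 699 of these whose mean reached 100 FPKM, the genes with a lower difference were 2 in number, Pax4 and Selenow, and both are named because of their values. Smarcd1 was chosen for its large difference, so its place by that difference repeats the choice and nothing is read from it. Pax4, a transcription factor known from pancreatic islets and photoreceptors, had 216.1, 73.7 and 101.5 FPKM in diabetic libraries, against 259.2, 297.3 and 249.6 FPKM in control libraries. Selenow, a small selenoprotein, had 22.0, 7.52 and 273.5 FPKM in diabetic libraries, against 251.7, 359.6 and 289.0 FPKM in control libraries. The diabetic libraries of both genes were spread widely, unlike those of Smarcd1.

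**Figure D1:**
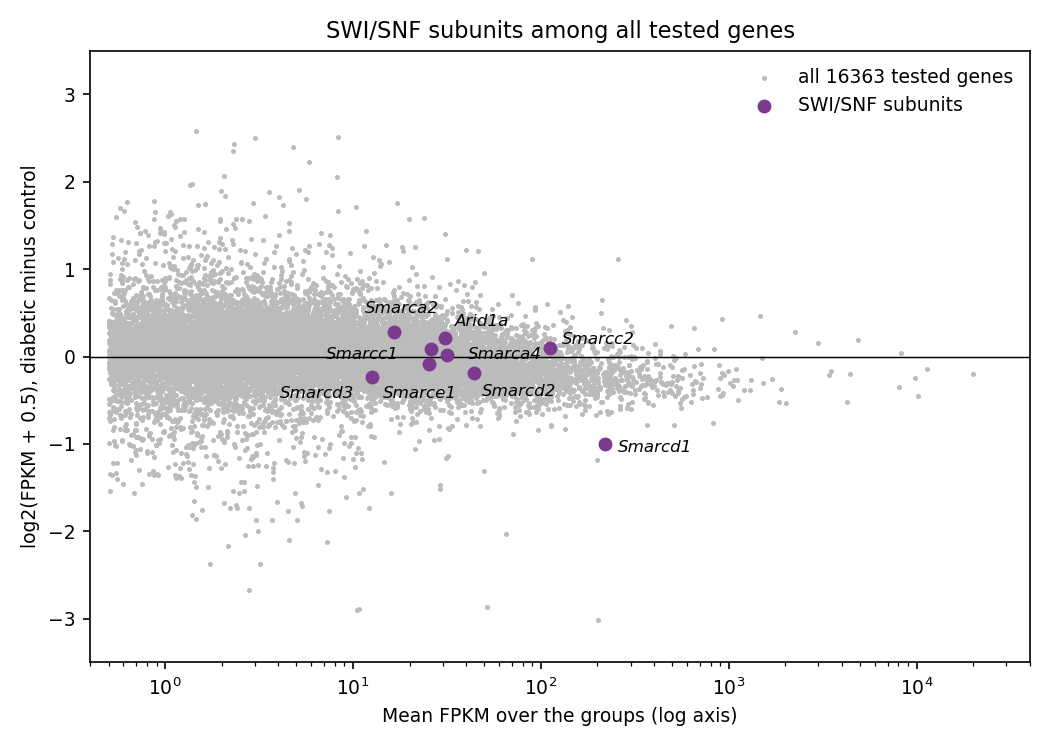
Difference between groups, diabetic minus control, on the scale of log2(FPKM + 0.5) against mean FPKM over the groups (log axis) for all 16363 tested genes (grey) and the subunit genes among them (purple). Smarcd1 lies at -1.00 at the lower edge of the highly expressed genes, and the other subunits lie between -0.23 and 0.28.

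Some markers of photoreceptors and of other cells differed between the groups as well. Among all tested genes, 13.6% were lower and 12.7% higher in diabetic retinas without overlap. The rod genes Gnat1, Pde6b and Nrl were lower in every diabetic library than in any control library, while Sag overlapped between the groups, and none of these was at 0 in a library. Cone markers summed to between 498 and 563 FPKM in diabetic libraries and to between 579 and 646 FPKM in control libraries. Of the 5 genes, 1 was lower (Pde6h) and 1 higher (Opn1sw) without overlap. Opn1mw also had a higher mean in diabetic retinas, and Arr3 and Gnat2 had a lower one. Müller glia markers summed to between 885 and 1267 FPKM in diabetic libraries and to between 1317 and 1510 FPKM in control libraries. Of the 5 genes, 1 was lower without overlap (Apoe). Glul and Rlbp1 also had lower means in diabetic retinas, and Slc1a3 and Aqp4 had higher ones. Vascular markers summed to between 4.91 and 5.82 FPKM in diabetic libraries and to between 6.82 and 12.4 FPKM in control libraries. Of the 4 genes, 2 were lower without overlap (Pdgfrb and Rgs5), Cdh5 overlapped, and 1 was at 0 in every library (Cldn5). The summed markers of bipolar, amacrine, horizontal and ganglion cells, microglia, pigment epithelium, lens, cornea and optic nerve overlapped between the groups, although single genes of 3 of these lists did not: 2 of 5 amacrine genes and 1 of 4 horizontal cell genes were higher, and 1 of 5 microglia genes was lower, without overlap. The part of these cells in the difference of Smarcd1 was not tested.

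The 250 bases in front of the start sites of the Smarcd paralogs are shown to let the setting of the gene with the largest difference be read beside that of its relatives. They come from RefSeq on the build GRCr8, whose coordinates differ from those of the expression table, and are written 5′ to 3′ on the strand of the gene. Capitals mark the GC box GGGCGG or its reverse complement CCGCCC, a motif bound by the Sp family of transcription factors. The stretches are chr7:132708377-132708626 on the plus strand for Smarcd1, chr10:91702409-91702658 on the minus strand for Smarcd2, and chr4:11440950-11441199 and chr4:11463026-11463275 on the plus strand for start 1 and start 2 of Smarcd3.
Smarcd1: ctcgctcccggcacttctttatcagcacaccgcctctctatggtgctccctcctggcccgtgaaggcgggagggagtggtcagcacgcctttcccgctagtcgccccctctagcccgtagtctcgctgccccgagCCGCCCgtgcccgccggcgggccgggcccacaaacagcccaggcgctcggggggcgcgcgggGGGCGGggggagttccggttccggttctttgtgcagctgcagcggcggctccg
Smarcd2: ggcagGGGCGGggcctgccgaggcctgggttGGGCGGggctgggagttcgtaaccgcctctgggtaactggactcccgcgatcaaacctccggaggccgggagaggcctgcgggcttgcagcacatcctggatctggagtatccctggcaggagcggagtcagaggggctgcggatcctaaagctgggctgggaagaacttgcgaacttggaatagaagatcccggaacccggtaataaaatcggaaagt
Smarcd3 start 1: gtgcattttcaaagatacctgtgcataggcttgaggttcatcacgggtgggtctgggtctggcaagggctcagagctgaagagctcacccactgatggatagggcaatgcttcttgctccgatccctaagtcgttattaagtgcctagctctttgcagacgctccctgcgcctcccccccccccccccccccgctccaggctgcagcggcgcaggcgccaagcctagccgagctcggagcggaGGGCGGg
Smarcd3 start 2: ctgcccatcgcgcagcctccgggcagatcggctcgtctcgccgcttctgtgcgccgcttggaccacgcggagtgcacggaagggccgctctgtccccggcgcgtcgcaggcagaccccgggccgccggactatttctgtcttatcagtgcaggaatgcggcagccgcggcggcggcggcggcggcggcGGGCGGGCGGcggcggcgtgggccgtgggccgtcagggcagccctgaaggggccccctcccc

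The Smarcd1 window was 72.4% G and C and held GC boxes that began 115 and 53 bases in front of the start. The Smarcd2 window was 62.4% G and C and held them 245 and 219 bases in front. For Smarcd3, the window of start 1 was 62.4% G and C with a box 7 bases in front, and that of start 2 was 76.4% G and C with overlapping boxes 62 and 58 bases in front. All 4 windows were above the median G and C content of 51.2% over the 33469 windows of the same length in the table, and 30.5% of those windows held a GC box on either strand. The core TAATCC, or GGATTA on the other strand, which the photoreceptor factor CRX binds, was in 6.34% of the windows and its letters were in none of the 4.

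The paralogs of Smarcd1 differed less between the groups, in a set that was chosen for the difference of Smarcd1. Smarcd2, on chromosome 10, is needed for the maturation of granulocytes in mouse and human. It had 37.4, 40.3 and 45.5 FPKM in diabetic libraries, against 43.2, 49.8 and 47.4 FPKM in control libraries. Diabetic 3 lay within the control range, and the other diabetic libraries lay below it. The means were 41.1 ± 4.13 FPKM in diabetic retinas and 46.8 ± 3.35 FPKM in control retinas (SD, n = 3 each), and the log2 difference was -0.19 with a 95% interval of -0.42 to 0.04 and lay between -0.26 and -0.05 over 19 alternative settings. Smarcd3, on chromosome 4, is known from heart and skeletal muscle and from neurons. It had 10.3, 12.8 and 11.6 FPKM in diabetic libraries, against 15.6, 12.4 and 13.01 FPKM in control libraries. The groups overlapped, since diabetic 2 lay above control 2. Its log2 difference was -0.23 with a 95% interval of -0.52 to 0.06, and it lay between -0.30 and -0.10 over the alternative settings.

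Because a complex takes up a single Smarcd protein, the mix of the 3 mRNAs was also computed. The mix holds the Smarcd1 values on which the set was chosen, so it is given as a description. Their summed level was 197.3, 197.7 and 201.7 FPKM in diabetic libraries, against 325.5, 354.9 and 383.6 FPKM in control libraries. Smarcd1 made up 75.8%, 73.2% and 71.7% of the sum in diabetic libraries, against 81.9%, 82.5% and 84.3% in control libraries. It was thus the main paralog in every library, with a lower share in each diabetic library than in any control library. The share averaged 73.6% ± 2.10 in diabetic retinas and 82.9% ± 1.22 in control retinas (SD, n = 3 each). Smarcd2 made up 20.6% ± 1.83 of the sum in diabetic retinas and 13.2% ± 0.852 in control retinas, and Smarcd3 5.81% ± 0.623 in diabetic retinas and 3.89% ± 0.786 in control retinas. Neither Smarcd2 nor Smarcd3 had a higher mean FPKM in diabetic retinas, so their larger shares went with the smaller sum. Per Smarcd2, Smarcd1 stood at 3.59 ± 0.413 in diabetic retinas and at 6.29 ± 0.488 in control retinas.

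**Figure D2:**
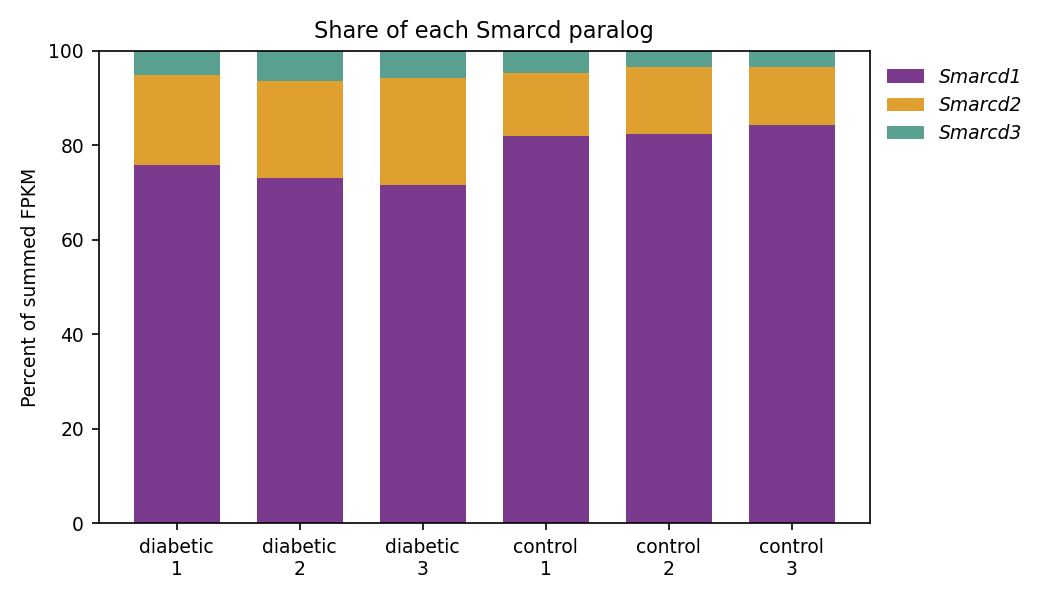
Share of Smarcd1, Smarcd2 and Smarcd3 in their summed FPKM, in percent, with 1 stacked bar per library. Smarcd1 holds 71.7% to 75.8% in the diabetic libraries and 81.9% to 84.3% in the control libraries.

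The ATPases were measured with narrow spread. Smarca4, on chromosome 8, is the ATPase that the early embryo needs in mouse. It had 31.0, 31.0 and 33.4 FPKM in diabetic libraries, against 31.8, 28.8 and 34.0 FPKM in control libraries. The diabetic libraries lay within the control range, and the log2 difference was 0.02 with a 95% interval of -0.19 to 0.22 and changed sign in 3 of the 19 alternative settings. A small nuclear RNA gene of 99 bases, listed at a mean of 9.56 FPKM, lies inside the span of Smarca4 on the other strand. Whether it shares exon bases with Smarca4 was not examined, and reads of shared bases cannot be told apart without strand. Smarca4 itself had a length of 5568 bases and between 1936 and 3516 fragments per library. Smarca2, on chromosome 1, is the alternative ATPase and is more abundant in cells that have stopped dividing. It had 18.4, 18.9 and 17.1 FPKM in diabetic libraries, against 14.4, 14.4 and 15.6 FPKM in control libraries. All diabetic libraries lay above all control libraries, with a log2 difference of 0.28 and a 95% interval of 0.09 to 0.47. Smarca4 stood at 1.69, 1.65 and 1.96 times Smarca2 in diabetic libraries, against 2.20, 1.996 and 2.18 times in control libraries. Smarca4 was the higher of the pair in every library, by a smaller factor in each diabetic library.

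The scaffolds Smarcc1 and Smarcc2 pair with each other or with themselves to form the base on which the complex is assembled. Smarcc1, on chromosome 8, is the scaffold of mouse embryonic stem cells and had 26.4, 25.4 and 28.2 FPKM in diabetic libraries, against 24.1, 24.8 and 26.2 FPKM in control libraries. Control 3 lay above diabetic 2, so the groups overlapped, and the log2 difference was 0.09 with a 95% interval of -0.09 to 0.27, and between 0.02 and 0.23 over the alternative settings. Smarcc2, on chromosome 7 at 2875909 to 2904453 and thus far from Smarcd1, joins the complex as such cells differentiate. It had 99.6, 126.6 and 120.3 FPKM in diabetic libraries, against 98.6, 105.8 and 118.9 FPKM in control libraries. The groups overlapped, with a log2 difference of 0.10 and a 95% interval of -0.18 to 0.37, and of 0.03 to 0.28 over the alternative settings. Smarcc2 was 4.34 ± 0.609 times Smarcc1 in diabetic retinas and 4.30 ± 0.228 times in control retinas (SD, n = 3 each). Smarcd1 was 1.502, 1.14 and 1.20 times Smarcc2 in diabetic libraries, against 2.70, 2.77 and 2.72 times in control libraries. This ratio, too, holds the Smarcd1 values on which the set was chosen.

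Smarce1, on chromosome 10, encodes a core protein with an HMG domain that binds DNA. It had 24.9, 23.4 and 25.0 FPKM in diabetic libraries, against 25.3, 27.0 and 25.96 FPKM in control libraries. The groups did not overlap, but diabetic 3 and control 1 lay close together, and the log2 difference of -0.09 had a 95% interval of -0.27 to 0.08 and became 0.04 after rescaling to TPM. RefSeq names 11 pseudogenes for Smarce1 and 1 for Smarca2, and the sources used here do not say how reads shared with them were counted. Arid1a, on chromosome 5, encodes the large DNA-binding subunit of canonical complexes and is a tumour suppressor. It had 27.2, 35.8 and 36.4 FPKM in diabetic libraries, against 27.0, 26.02 and 32.7 FPKM in control libraries. Diabetic 1 lay within the control range and the other diabetic libraries above it, with a log2 difference of 0.21 and a 95% interval of -0.13 to 0.54. That difference was 0.01 with a trend with gene length removed, 0.34 without diabetic 1 and 0.13 without diabetic 3.

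Smarcb1, on chromosome 20, encodes a core protein that grips the nucleosome and is lost in rhabdoid tumours. It was listed at 0 in all libraries but diabetic 2, where 1 fragment gave 0.0159 FPKM, so it was not tested. The table held a further gene of the same description, LOC103694876, on an unplaced contig, with a length of 3703 bases beside 3713 for Smarcb1. That gene had 0.823, 1.58 and 1.07 FPKM in diabetic libraries, against 11.03, 1.12 and 0.990 FPKM in control libraries. Control 1 stood far above the other libraries, with 696 fragments beside 47 to 99 in the others. The 6 genes of this stretch of chromosome 20 and 6 genes of the contig follow each other in the same order and on the same strands, and 3 of the pairs have the same length. How reads that match both places were counted is not stated, so the low values are no measure of Smarcb1 in the retina.

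By mean level the order of the genes was Smarcd1, Smarcc2, Smarcd2, Smarca4, Arid1a, Smarcc1, Smarce1, Smarca2, Smarcd3 and Smarcb1. The order was the same in TPM. That rescaling divides all genes of a library by the same factor, so it cannot change their order within a library. Within each group, the libraries of Smarcd1, Smarcc2 and Smarcd2 did not overlap with those of the next gene in the order. Those of Smarce1 and Smarca2 did not overlap either. Those of Smarca4 and Arid1a overlapped in each group, and so did those of Arid1a and Smarcc1. Smarcc1 and Smarce1 overlapped in the control libraries and were apart in the diabetic ones, where Smarcc1 was higher. Smarca2 and Smarcd3 also overlapped in the control libraries and were apart in the diabetic ones, where Smarca2 was higher.

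**Figure D3:**
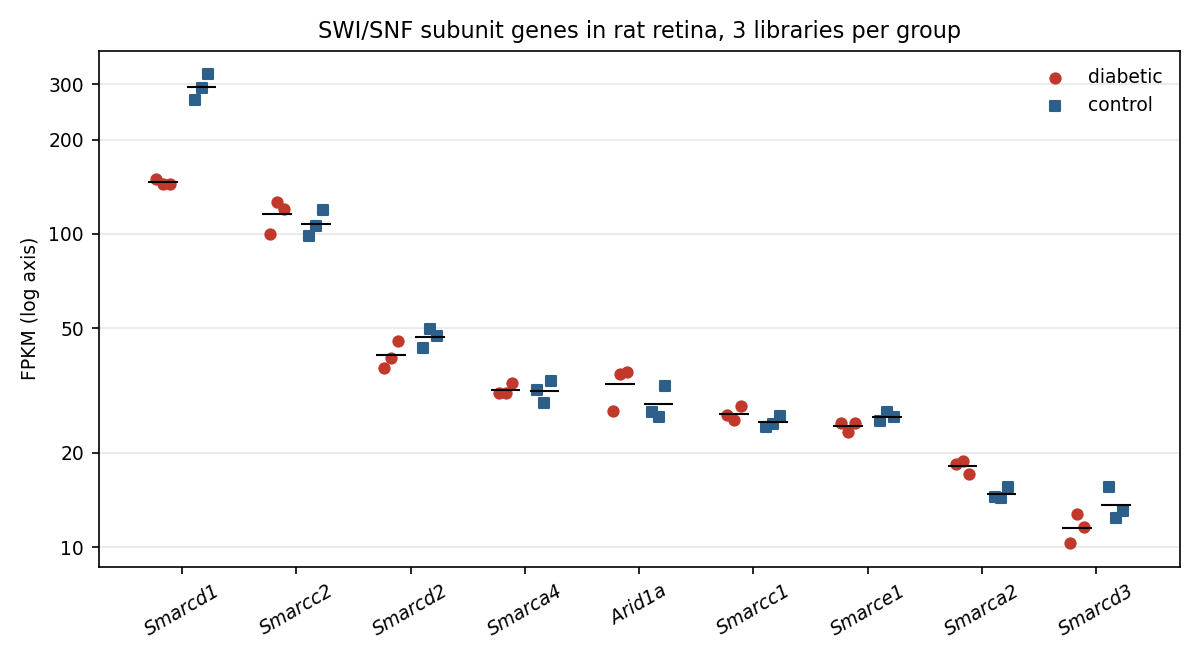
FPKM (log axis) of 9 subunit genes in each of the 3 diabetic and 3 control libraries, with a bar at the group mean; Smarcb1, at 0 in most libraries, is not drawn. Smarcd1 lies between 144.5 and 149.6 FPKM in the diabetic libraries and between 266.7 and 323.2 FPKM in the control libraries, and Smarca2 and Smarce1 are the only others drawn whose groups do not overlap.

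Of the 9 genes with enough reads to be tested, 5 had a log2 difference above 0 and 4 below 0, with a median of 0.02, beside 50.1% above and 49.9% below among all tested genes. The groups were apart and higher in diabetic retinas for 1 gene, Smarca2, and apart and lower for 2, Smarcd1 and Smarce1. Among all tested genes 12.7% were apart and higher, 13.6% apart and lower, and 26.2% apart in either direction. Nothing is read from these counts, since the same contrast chose the genes. No gene of the table passed an adjusted p of 0.05 in the limma test (0%, smallest adjusted p = 0.127), while 19.9% had an unadjusted p below 0.05, 9.15% higher and 10.7% lower in diabetic retinas. That is 1498 genes higher and 1757 lower, against 3009 higher and 692 lower after rescaling to TPM, where all tested genes had a median log2 difference of 0.13, and 2210 higher and 1203 lower with voom. With voom on the rebuilt fragments, 2 genes of the whole table passed.

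A wider list of 21 further subunit genes was examined, of which 20 had enough reads. In limma's test with Benjamini-Hochberg adjustment over all tested genes, none passed (smallest adjusted p = 0.127), and 2 were higher and 1 lower at an unadjusted p below 0.05, beside 19.9% of all tested genes in either direction. The groups were apart and higher in diabetic retinas for 2 genes, Bcl7a and Arid2, and apart and lower in FPKM for 3, Bcl7b, Bcl7c and Dpf2, beside 26.2% of all tested genes in either direction. The sign for Bcl7b changed in 2 of the 19 alternative settings. The median log2 difference was -0.01, beside 0 for all tested genes.

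Bcl7a, Bcl7b and Bcl7c encode small subunits shared by SWI/SNF complexes. The differences of Bcl7a and Bcl7c had opposite signs, and neither passed the test. Bcl7a had 10.2 ± 0.381 FPKM in diabetic retinas and 6.77 ± 0.364 FPKM in control retinas (SD, n = 3 each), and the log2 difference was 0.56 with a limma adjusted p of 0.127. Bcl7c had 10.7 ± 1.10 FPKM in diabetic retinas and 13.7 ± 1.07 FPKM in control retinas (SD, n = 3 each), and the log2 difference was -0.34 with a limma adjusted p of 0.176. Bcl7b lay at a mean of 26.2 FPKM in diabetic retinas and 27.6 FPKM in control retinas.

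Other subunits mark the specific forms of the complex. Arid2 and Pbrm1 belong to the PBAF form, several of whose subunits carry bromodomains, which bind acetylated histones. Arid2 had 18.1 ± 1.01 FPKM in diabetic retinas and 13.8 ± 2.86 FPKM in control retinas (SD, n = 3 each), and the log2 difference was 0.40 with a limma adjusted p of 0.213 and was 0.25 without control 1. Pbrm1 had 21.8 ± 1.04 FPKM in diabetic retinas and 17.2 ± 5.71 FPKM in control retinas (SD, n = 3 each), and the log2 difference was 0.38 with a limma adjusted p of 0.351, and was 0.20 without control 1 and 0.63 without control 3. The other PBAF subunits, Brd7 and Phf10, lay at means of 40.0 and 19.4 FPKM in diabetic retinas and of 39.8 and 19.5 FPKM in control retinas. Bicral and Bicra, of the non-canonical form, had log2 differences of 0.43 and 0.29 (limma adjusted p = 0.280 and 0.357), and Brd9 of the same form lay at a mean of 30.8 FPKM in diabetic retinas and 32.7 FPKM in control retinas. Arid1b, the alternative to Arid1a, had a log2 difference of 0.16 (limma adjusted p = 0.412).

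The subunits that are exchanged between progenitors and neurons were all present. Actl6a, the progenitor actin-like protein, had a mean of 19.0 FPKM in diabetic retinas and 19.2 FPKM in control retinas, and its neuronal counterpart Actl6b had 12.6 FPKM in diabetic retinas and 14.1 FPKM in control retinas, a log2 difference of -0.15 with a limma adjusted p of 0.470. Of the PHD-finger proteins, Dpf2, which is broadly expressed, had 39.1 FPKM in diabetic retinas and 43.4 FPKM in control retinas (log2 difference -0.15, limma adjusted p = 0.319). Dpf1, a neuronal form, had 2.73 FPKM in diabetic retinas and 3.18 FPKM in control retinas (log2 difference -0.17, limma adjusted p = 0.642), and Dpf3, the other neuronal form, had 18.6 FPKM in diabetic retinas and 17.5 FPKM in control retinas. Ss18 and its neuronal counterpart Ss18l1 had 27.1 and 11.7 FPKM in diabetic retinas and 28.3 and 11.9 FPKM in control retinas. None of these genes passed the test.

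**Figure D4:**
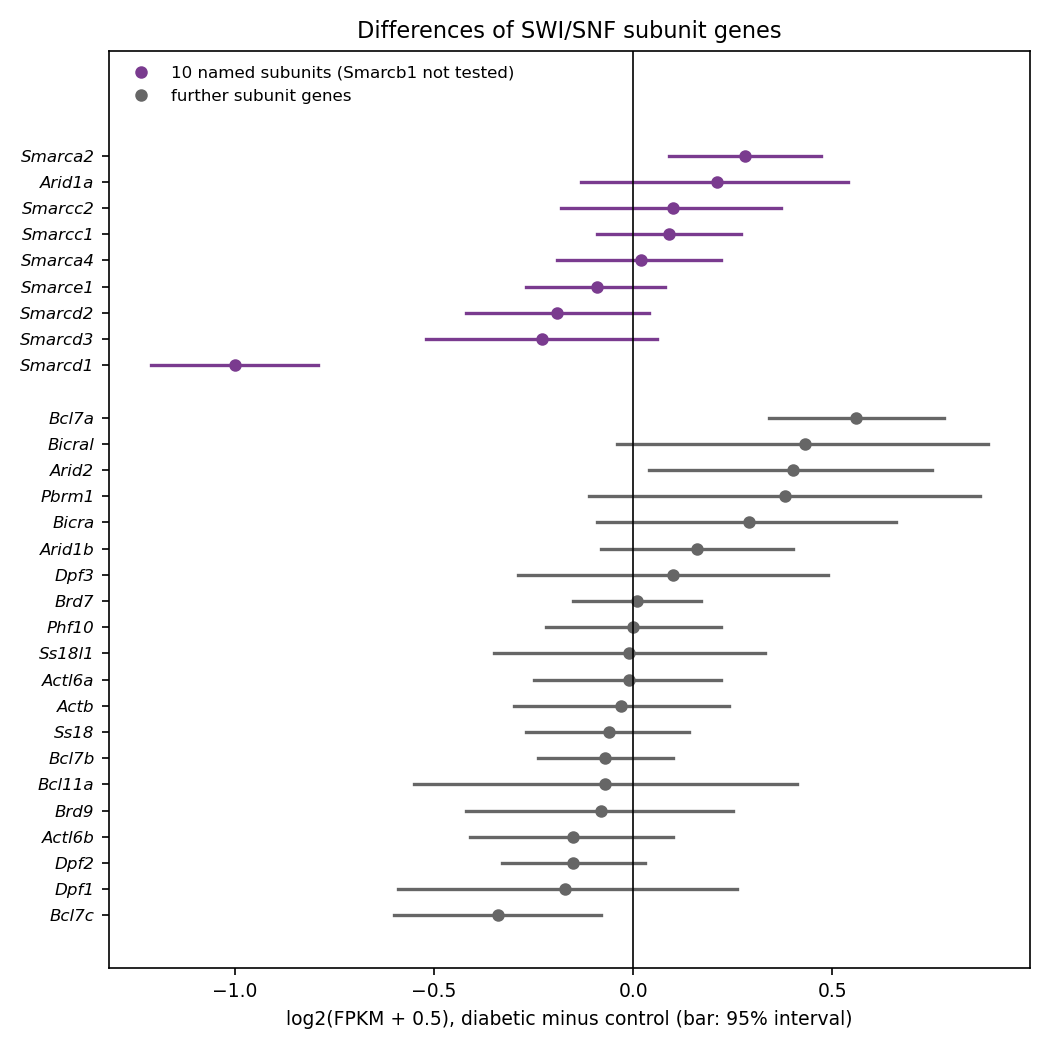
Difference between groups, diabetic minus control, on the scale of log2(FPKM + 0.5) for 9 of the 10 named subunits (purple) and 20 further subunit genes (grey), with bars for the 95% interval. Smarcd1 lies at -1.00, with an interval that ends at -0.79, and the other genes lie between -0.34 and 0.56. Smarcd1 was chosen for its difference, so its interval is no test.

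Remodellers of other families are given for comparison, and none of their genes passed limma's test over all tested genes. Of 11 ISWI genes, 8 were above 0, with a median log2 difference of 0.26, and the smallest p-values were those of Bptf (log2 difference 0.51, adjusted p = 0.148), Baz2b (0.33) and Rsf1 (0.35). The ISWI median was 0.14 with a trend with gene length removed, where Bptf lay at 0.29 and Baz2b at 0.14, and 0.15 without control 1. Of the 20 CHD and NuRD genes, 12 were above 0, with a median of 0.09. The 9 CHD enzymes among them were all above 0, with a median of 0.27, and 7 of the 9 with a median of 0.05 once that trend was removed. Of these enzymes Chd9 had 23.9 ± 1.74 FPKM in diabetic retinas and 15.4 ± 4.03 FPKM in control retinas (SD, n = 3 each, limma adjusted p = 0.144), and Chd8 had a log2 difference of 0.32. Mbd3, a core subunit of NuRD, had a log2 difference of -0.45 (limma adjusted p = 0.137). Of 18 genes of INO80, SRCAP and TIP60, 6 were above 0, with a median of -0.09, among them Ino80 at 0.37 (limma adjusted p = 0.132), and Znhit1 and Ino80c lay at -0.54 and -0.23 (limma adjusted p = 0.127 for Znhit1). In TPM, 13 of the 18 were above 0, with a median of 0.05, beside a median of 0.13 for all tested genes.

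Gene length moved with these differences. The protein-coding genes of up to 897 bases had a median log2 difference of -0.20 (n = 1354), and those of 5169 bases or more had one of 0.17 (n = 1349). The subunit genes had a median length of 3810 bases, beside 2100 for all tested genes. Smarcd1 had 3266 bases. With the trend with length removed, Smarca2 lay at 0.17, Smarca4 at -0.11, Arid1a at 0.01, Smarcc1 at 0.02 and Smarcc2 at 0.04. Smarcd1 then lay at -1.05, Smarcd2 at -0.20, and Smarcd3 and Smarce1 at -0.16. The median of the 9 tested subunits was -0.11 with 4 above 0, beside 0.02 with 5 above 0 in the main setting. The part of gene length in the differences of the subunits was not tested.

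The genes beside Smarcd1 on chromosome 7 were examined within 50 kb. Asic1, an acid-sensing ion channel that ends 1057 bases in front of Smarcd1, had 10.1, 10.7 and 8.85 FPKM in diabetic libraries, against 10.6, 8.18 and 8.92 FPKM in control libraries, and the groups overlapped (log2 difference 0.10, limma adjusted p = 0.713). Gpd1, an enzyme of glycerol phosphate metabolism 3759 bases behind Smarcd1, had 3.03 ± 0.250 FPKM in diabetic retinas and 3.96 ± 0.431 FPKM in control retinas (SD, n = 3 each), and the log2 difference was -0.34 with a limma adjusted p of 0.238. Cox14, an assembly factor of cytochrome oxidase, had a log2 difference of -0.36 (limma adjusted p = 0.199), and Cers5, a ceramide synthase, one of -0.26 (limma adjusted p = 0.173). The diabetic libraries of Gpd1, Cox14 and Cers5 all lay below the control libraries, which held for 13.6% of all tested genes, and none of the neighbours passed the test and none shared bases with Smarcd1. Racgap1, the other gene in the window, was under 0.5 FPKM.

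**Figure D5:**
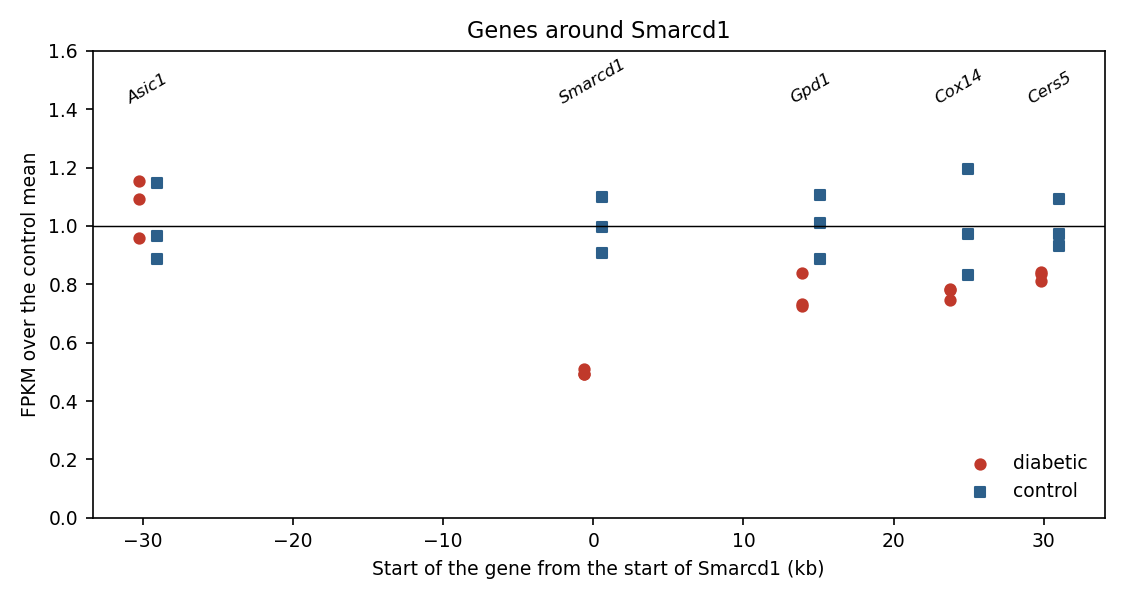
FPKM divided by the control mean for Smarcd1 and the tested genes within 50 kb, for each diabetic and control library, against the distance of the gene's start from the start of Smarcd1 in kb. The diabetic libraries of Smarcd1 lie near 0.5, those of Gpd1, Cox14 and Cers5 lie between there and 1, and those of Asic1 overlap with control.

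Genes whose level followed Smarcd1 most closely across the 6 libraries were sought among the 7222 protein-coding genes whose mean reached 10 FPKM. The highest Pearson correlations of log2 values were those of Atg4d, an autophagy protease (0.994), Drd4, a dopamine receptor of photoreceptors (0.992), Pank4, of the pantothenate kinase family (0.989), Alpl, an alkaline phosphatase (0.985), and RGD1560065 (0.985). Correlations above 0.9 were reached by 333 genes, and the points share the libraries and the division into groups, so these values are a description. Drd4 had 51.5, 50.4 and 46.8 FPKM in diabetic libraries, against 79.5, 92.3 and 106.3 FPKM in control libraries. In its libraries, too, the diabetic values lay close together. Control 1 was the lowest and control 3 the highest of the control libraries, as for Smarcd1. Drd4 was picked by its correlation with Smarcd1, so this likeness follows from the choice and nothing is read from it. Atg4d, with the highest correlation, had 40.0, 42.9 and 42.6 FPKM in control 1, 2 and 3, and was thus highest in control 2. Among the subunits the correlation with Smarcd1 was 0.78 for Smarce1, 0.70 for Smarcd2 and 0.57 for Smarcd3, and -0.88 for Smarca2, -0.55 for Smarcc1, -0.47 for Arid1a, -0.28 for Smarcc2 and -0.05 for Smarca4.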

How the data were processed

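Poly-A RNA of the retinas of 6 rats was sequenced as read pairs with a kit for which no strand marking is named, per the labels' protocols. Reads were aligned by HISAT2 2.0.5, per the submitters' processing notes. Counting tool, genome build and annotation were not given in the sources used here. FPKM values were deposited by the authors with gene lengths and coordinates, per the file headers. FPKM times gene length was a whole number of fragments within 0.05 for 100% of the values, and 3 fragments over 1 kb of transcript equalled 0.158 to 0.248 FPKM. Intervals of a log2 difference cover the spread between libraries, in which animals, dissection, library preparation and sampling cannot be told apart. The variance behind them was moderated over all tested genes. Like floors, these intervals cover no other error.

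Genes whose mean reached 0.5 FPKM were tested by limma 3.58.1 (R 4.3.3) on log2(FPKM + 0.5) values (group as the only term, eBayes with intensity trend, two-sided, Benjamini-Hochberg adjusted p, threshold 0.05), and the code was tested on simulated data. The libraries had the same median ratio to their geometric mean, so scaling by it changed no value. The subunits and gene lists were chosen with earlier results of these data known. Text names all 10 subunits, of the further subunits those of specific, neural and progenitor complexes and up to 4 others of smallest p, of other remodellers the 3 of smallest p per list, neighbours within 50 kb, and the 5 genes most like Smarcd1. Pax4, Selenow, Racgap1 and LOC103694876 were named after their values were seen. Promoter windows came from RefSeq on GRCr8, where all but 1 of the subunit genes (9 of 10) had an entry. Alternatives were other pseudocounts (0.1 and 1), filters, scalings, limma settings, voom, protein-coding genes alone, a length trend, a replicate block and omission of each library in turn. Replicates are libraries of separately weighed rats, and any pair within a group differed by more than sampling noise (smallest chi-square over its degrees of freedom 10.7). A rod marker and the summed rod list are not reported here. The m6A measurements of the series were not analysed here.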

Additional observations from a re-analysis of the deposited data

How the results depend on the processing

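Over 19 alternatives the log2 difference of Smarcd1 lay between -1.07 and -0.82, and it was smallest with TPM (-0.87) and quantile normalization (-0.82). Filters, median-ratio scaling, limma settings, the replicate block and protein-coding genes alone leave a log2 difference unchanged. Only the other alternatives could therefore move a value or its sign. For 7 of the 9 tested subunits the sign was the same in all 19. Smarca4 changed sign in 3 of them, and Smarce1 in 1, at 0.04 with TPM. Arid1b lay at -0.04 with the length trend removed. TPM divides every gene of a library by the summed FPKM of that library. This sum was 467488 to 500107 in diabetic libraries and 514771 to 552093 in control libraries. The rescaling therefore moves all genes upward alike in the diabetic group, Smarce1 among them. The cause of the other reversals was not tested. With TPM the median of all genes moved to 0.13, and genes at an unadjusted p below 0.05 were 3009 higher and 692 lower, against 1498 higher and 1757 lower in FPKM. With voom they were 2210 higher and 1203 lower. Relative to that median in TPM, Smarcd2 (-0.05) and Smarce1 lay lower and Smarca2 (0.42) higher. The 10 further subunits within 0.10 of 0 each changed sign under at least 1 alternative, so no difference is given for them, and the placing of Bcl7b below control holds for FPKM as deposited.

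The count of genes past the threshold was 0, and 2 with voom. Leaving out 1 library gave 0 to 4 (4 without diabetic 1, 1 without diabetic 2, 1 without control 2). An unadjusted p below 0.05 was reached by 3255 genes, and by 2073 to 4010 without 1 library, lowest without diabetic 2. The count of genes apart between the groups was 4289, and 5387 to 7162 without 1 library, which leaves fewer values to compare, highest without control 3. Same-numbered libraries did not deviate together (correlations of -0.05, -0.08 and 0.00). These values gave no sign of pairing by number, but they cannot show that the rats were not matched. With a replicate block 0 genes passed and 2790 had an unadjusted p below 0.05.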
